A study of Mus musculus with 10 samples.

Results

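The widest stretches of open chromatin in mouse haematopoietic stem and progenitor cells (HSPCs) are described here, in wild-type cells and in cells with leukaemia-associated alleles. ATAC-seq peaks of 8 libraries were merged into 103446 regions on chromosomes 1 to 19 and X wherever peaks shared at least 1 bp. A region was kept when at least 1 single peak of any library in it was 2500 bp or wider, which held for 1698 regions, here called wide domains. The domains were thus chosen by the width of their peaks in these same 8 libraries, and every width below is a description without a test. Every single peak in the 101748 other regions was under the limit by construction.

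The cells were lineage-negative bone marrow cells of C57BL/6 mice, obtained by magnetic depletion of lineage-positive cells, and 100000 cells per library were tagmented. Each of 4 genotypes has 2 libraries: wild type (WT), Npm1c (labelled Npm1flox-cA/+;Mx1-Cre+), Flt3-ITD (labelled Flt3ITD/+) and the double mutant DM (labelled Npm1flox-cA/+;Flt3ITD/+;Mx1-Cre+). Npm1c is a mutation of the nucleolar protein nucleophosmin, and Flt3-ITD is an internal tandem duplication in the cytokine receptor FLT3. No Cre is named for the WT and Flt3-ITD mice, so a difference between libraries with and without the Npm1c allele is also one with and without Mx1-Cre, a Cre under an interferon-inducible promoter. The labels give no age and do not tie libraries to animals, so the spread between replicates may be in part technical.

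In ATAC-seq a transposase cuts DNA that is not wrapped in nucleosomes, and a peak is a stretch with many cuts. Most peaks are short, about the size of a single enhancer or promoter. Peaks of several kilobases form where neighbouring promoters and enhancers are open together, which in blood progenitors is known for genes of cell identity and for genes that respond quickly to stress and cytokines. The width of a called peak also moves with how deeply a library was sequenced and with whether gaps between neighbouring stretches are bridged.

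Promoters of 6 wide domains are shown because the domains over them stand for the patterns described below. The domain over Irf2bp2 was wide in every library, and that over Tgif1 was widest in WT and Npm1c. The domain over Zfpm1 was widest in WT, that over Psmf1 in Npm1c, that over Klf4 in DM, and the widest peak over Pcdh7 was far shorter in DM than in WT. Each sequence runs 5′ to 3′ on the strand of the gene, from 250 bases before to 50 bases after its start, and is RefSeq sequence of GRCm38.p6, the assembly of the mm10 build. Capitals mark CG dinucleotides, the sites of DNA methylation whose density defines CpG islands.
Irf2bp2 (chr8:126593937-126594236, minus strand): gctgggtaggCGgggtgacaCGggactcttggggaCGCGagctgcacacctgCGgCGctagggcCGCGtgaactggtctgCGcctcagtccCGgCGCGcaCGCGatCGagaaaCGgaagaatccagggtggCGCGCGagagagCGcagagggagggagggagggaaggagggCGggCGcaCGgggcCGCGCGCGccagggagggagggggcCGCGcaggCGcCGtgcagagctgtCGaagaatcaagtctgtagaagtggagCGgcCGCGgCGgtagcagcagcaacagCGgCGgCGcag
Tgif1 (chr17:70853483-70853782, minus strand): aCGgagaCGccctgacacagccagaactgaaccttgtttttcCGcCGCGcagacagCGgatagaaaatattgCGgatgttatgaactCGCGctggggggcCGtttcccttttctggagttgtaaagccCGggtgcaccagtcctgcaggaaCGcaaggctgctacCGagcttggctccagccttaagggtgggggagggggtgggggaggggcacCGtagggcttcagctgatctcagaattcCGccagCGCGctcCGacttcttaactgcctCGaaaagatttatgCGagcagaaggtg
Zfpm1 (chr8:122281891-122282190, plus strand): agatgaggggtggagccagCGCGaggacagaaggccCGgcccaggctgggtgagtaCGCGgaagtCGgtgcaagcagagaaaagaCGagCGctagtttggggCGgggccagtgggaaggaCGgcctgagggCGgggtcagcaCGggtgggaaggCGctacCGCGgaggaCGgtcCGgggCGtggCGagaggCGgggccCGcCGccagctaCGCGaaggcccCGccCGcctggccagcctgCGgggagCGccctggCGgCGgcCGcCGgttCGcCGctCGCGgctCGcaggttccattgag
Psmf1 (chr2:151741261-151741560, minus strand): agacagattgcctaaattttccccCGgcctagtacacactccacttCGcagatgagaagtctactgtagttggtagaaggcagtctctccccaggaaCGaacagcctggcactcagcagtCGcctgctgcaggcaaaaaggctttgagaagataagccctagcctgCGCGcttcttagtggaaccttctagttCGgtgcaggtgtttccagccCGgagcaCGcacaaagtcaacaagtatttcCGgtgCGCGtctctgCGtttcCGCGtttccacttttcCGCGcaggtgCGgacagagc
Klf4 (chr4:55532426-55532725, minus strand): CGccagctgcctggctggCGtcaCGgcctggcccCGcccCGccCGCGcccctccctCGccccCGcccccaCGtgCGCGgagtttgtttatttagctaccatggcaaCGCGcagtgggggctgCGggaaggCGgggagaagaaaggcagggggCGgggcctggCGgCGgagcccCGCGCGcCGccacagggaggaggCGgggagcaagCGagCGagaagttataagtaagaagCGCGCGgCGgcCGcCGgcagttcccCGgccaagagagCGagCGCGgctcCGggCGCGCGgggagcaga
Pcdh7 (chr5:57717831-57718130, plus strand): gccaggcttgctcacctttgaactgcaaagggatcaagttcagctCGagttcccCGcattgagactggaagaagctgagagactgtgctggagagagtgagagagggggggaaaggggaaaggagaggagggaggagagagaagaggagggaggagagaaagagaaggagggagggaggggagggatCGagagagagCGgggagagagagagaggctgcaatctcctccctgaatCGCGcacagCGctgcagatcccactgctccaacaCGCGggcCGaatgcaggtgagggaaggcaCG
These windows held 39, 20, 37, 18, 40 and 11 CG in the order printed, so the promoters under very wide domains ranged from dense to sparse in CG.

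Some domains lie over microRNA genes, 29 of the 1228 annotated ones. Mature forms of 3 of them are given because their domains differed between genotypes (chosen after their values were seen), with the seed, bases 2 to 8, in capitals. The sequences are those of RefSeq.
let-7i-5p: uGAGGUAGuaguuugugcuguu
miR-196b-5p: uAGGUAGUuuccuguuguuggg
miR-142a-3p: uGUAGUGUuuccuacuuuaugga
These 3 have different seeds. The let-7 family restrains proliferation in many tissues, miR-196b is encoded in the Hoxa cluster, and miR-142a is a microRNA of blood cells.

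The number of wide peaks differed greatly between libraries. A peak of 2500 bp or wider lay in 1067 and 677 domains in the WT libraries, in 1037 and 1130 in Npm1c, in 172 and 325 in Flt3-ITD, and in 197 and 205 in DM. All 4 libraries without the Flt3-ITD allele thus lay above all 4 with it. Over the 1698 domains the median width of the widest peak was 2641 and 2341 bp in WT, 2623 and 2703 bp in Npm1c, 1545 and 1818 bp in Flt3-ITD and 1528 and 1532 bp in DM.

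**Figure D1:**
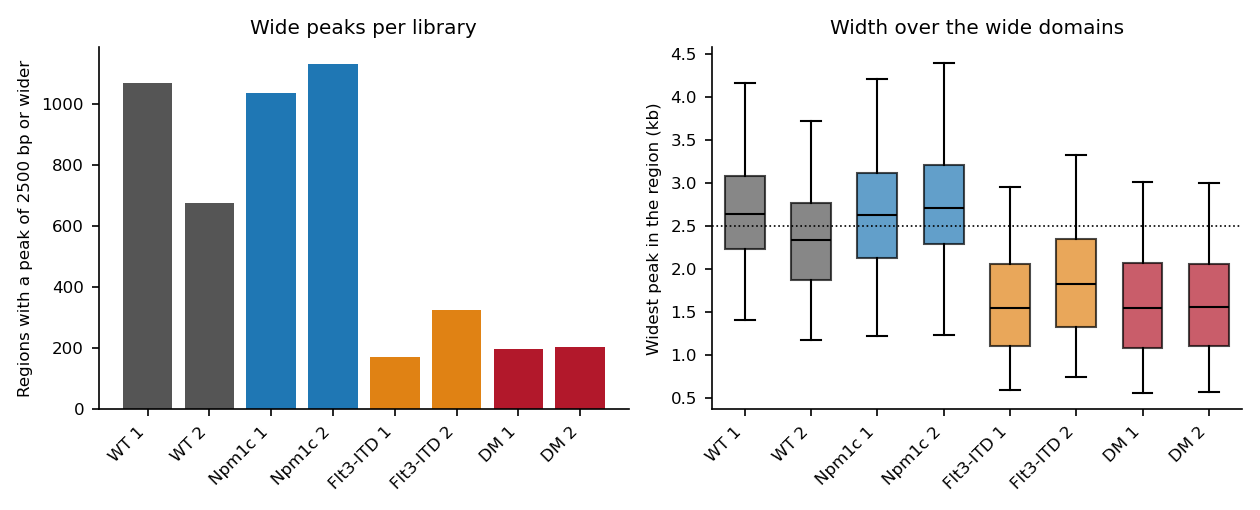
Left, the number of domains with a peak of 2500 bp or wider in each library (bars). Right, the width in kb of the widest peak per domain in each library among domains with a peak there (line, median; box, quartiles; whiskers, 5th to 95th percentile; dotted line, 2.5 kb). The 4 libraries without the Flt3-ITD allele have 677 to 1130 such domains and the 4 with it 172 to 325.

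Peaks as a whole were also narrower in the libraries with the Flt3-ITD allele. The 99th percentile of peak width within a list was 2666 and 2534 bp in WT, 2847 and 2854 bp in Npm1c, 2087 and 2282 bp in Flt3-ITD and 2024 and 2002 bp in DM. The lists held between 43825 and 80916 peaks, and the reads behind them are not given in the sources used here, so sequencing depth and narrower open chromatin cannot be told apart. Where a peak is instead ranked within its own list, and counts as wide at or above the percentile of 2500 bp over all lists together, 532 regions were wide in both WT libraries, 519 in both Npm1c, 337 in both Flt3-ITD and 453 in both DM libraries. By the width in bp these counts were 634, 856, 165 and 159. The gap between the genotypes with and without the Flt3-ITD allele was thus smaller by rank than in bp, and for each group of domains below the ranks are given beside the widths where they change the picture.

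A wide domain was in nearly all cases open in every library and differed in extent. Of the 1698 domains, 1656 had a peak in all 8 libraries, against 26169 of all 103446 regions. Most of the 42 others were missing in DM. Between genotypes, gain and loss (a peak in both libraries of one and in neither of the other) was therefore rare among the domains. For Npm1c against WT, 1 domain was gained and 1 lost, where 2.71% and 6.26% of all regions were. For Flt3-ITD against WT none was gained and 2 were lost, against 0.852% and 16.2% of all regions. DM gained 1 domain and lost 25 against WT, where the background was 6.93% gained and 20.9% lost. Against Npm1c, DM gained 2 and lost 26 (background 12.6% and 19.3%), and against Flt3-ITD it gained 2 and lost 20 (background 10.6% and 3.44%). These shares lie far below the background, and the rule favours them, since a domain needs a wide peak in some library.

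With and without the Flt3-ITD allele, 4 libraries against 4, not a single domain was called in each carrier library and nowhere else (0.566% of all regions were), and 1 was called in each non-carrier library and nowhere else (8.38% of all regions were). Without Flt3-ITD replicate 2 the latter number was 5. This domain, at chr7:103808341-103811916 with the beta-globin gene Hbb-bt as the nearest gene, was 803 and 886 bp wide in WT and 3576 and 3517 bp in Npm1c, and had no peak in Flt3-ITD or DM. For the Npm1c allele no domain had either pattern, where 0.156% and 0.204% of all regions did. No region of the 103446 passed an adjusted p of 0.05 for either allele by Fisher's exact test with Benjamini-Hochberg adjustment. The smallest p that 4 against 4 libraries can give in this test is 0.0286. For the Flt3-ITD allele 9250 regions were under an unadjusted 0.05, and the lowest adjusted p was still 0.320. The adjusted test could thus hardly pass any region, and no conclusion is drawn from it. At an unadjusted p under 0.05 there were 1 domain for the Flt3-ITD and 0 for the Npm1c allele.

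Agreement between replicates was uneven. Of domains wide in Npm1c replicate 1, 82.5% were also wide in replicate 2, and 75.8% the other way. For DM the shares were 80.7% and 77.6%, but of those wide in WT replicate 1 only 59.4% were wide in replicate 2 (93.6% the other way), and of those wide in Flt3-ITD replicate 2 only 50.8% were in replicate 1 (95.9% the other way). WT replicate 1 and Flt3-ITD replicate 2 were the libraries of their pairs with more wide peaks. A total of 537 domains were wide in a single library, 420 in 2 and 86 in all 8.

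The domains lay over genes and mostly over their starts. A protein-coding gene body was touched by 92.6% of domains and by 62.2% of all regions, and an end of such a gene by 74.4% and 10.8%. Part of this follows from size, since a long region touches more. By its midpoint, 59.8% of domains were within 1 kb of a gene end, against 14.6% of all regions and 35.3% of the other regions with a peak in all 8 libraries. A protein-coding gene start lay beneath 70.9% of domains off chromosome 18, where the start table has no entries, and beneath 9.97% of all regions. Of the 21627 protein-coding genes, 1805 (8.35%) had a wide domain. Transfer RNA genes were more often beneath a domain, 58 of 408 (14.2%).

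Peaks reached further into the gene than upstream of it. Among 836 domains with a single protein-coding start, 788 had that start within a peak in all 8 libraries. In these the median reach downstream of the start was 1537 and 1318 bp in WT, and upstream 992 and 870 bp. Npm1c reached 1554 and 1572 bp downstream and 993 and 1043 bp upstream. In Flt3-ITD it was 808 and 988 bp downstream and 593 and 706 bp upstream, and in DM 786 and 792 bp downstream and 605 and 626 bp upstream. The narrower peaks of the last genotypes had thus drawn in on both sides and more within the gene: between genotype means the median difference of DM minus Npm1c was -628.5 bp downstream and -253 bp upstream. At 1 kb into the gene a peak covered 84.3% and 76.8% of starts in WT and 46.9% and 44.9% in DM.

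**Figure D2:**
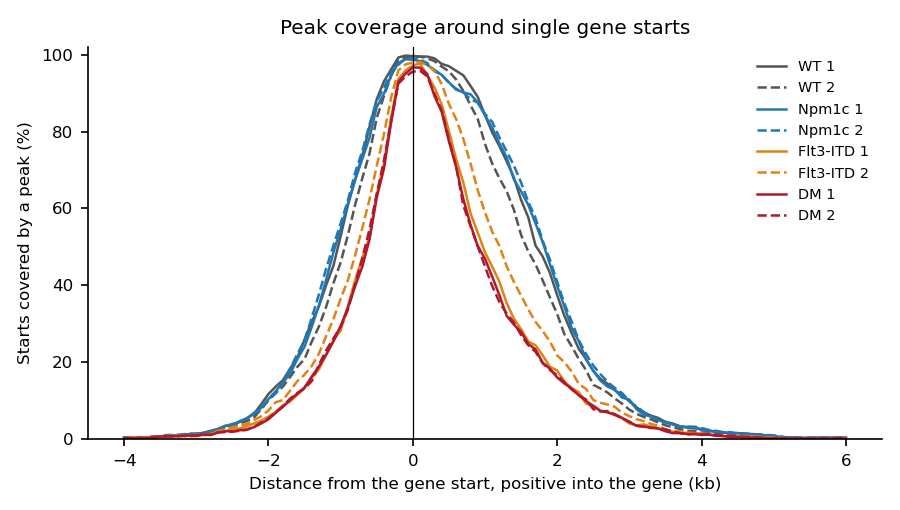
Share of 836 gene starts covered by a peak (y, %) by distance from the start in kb (x, positive into the gene), 1 line per library, replicate 2 dashed. At 1 kb into the gene the 4 libraries without the Flt3-ITD allele cover 76.8% to 84.6% of starts and the 4 with it 44.9% to 59.0%.

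The promoters beneath the domains were rich in CG. The median of 1337 promoters was 26 CG and 65.3% G or C per 300 bases, against 14 CG and 56.3% for all 17273 protein-coding genes of the start table and 21 CG and 61.3% beneath other regions with a peak in all 8 libraries. A GC box (GGGCGG on either strand) was in 75.5% of promoters beneath domains and in 46.9% of all promoters. Beneath other regions with a peak in all 8 libraries it was in 68.4%, so most of this difference is shared by those promoters. A TATA box (TATAAA, either strand) was in 4.49% beneath domains, 6.27% beneath those other regions and 13.4% of all. The CCAAT box (CCAAT, either strand) was in 39.0% of promoters beneath domains and in 39.4% of all. Of the 6 promoters printed above, 3 held a GC box, those of Irf2bp2, Zfpm1 and Klf4. The Psmf1 window held the heat shock element core GAANNTTC, a palindrome found in 6.51% of promoters beneath domains and 7.41% of all. A match describes letters in this window and not a bound factor.

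At the extreme, 24 domains held a peak of 6000 bp or wider and 3 one of 10000 bp or wider. The widest lay over Neat1 (chr19:5838506-5849720), a long noncoding RNA that scaffolds nuclear paraspeckles. Its widest peak was 11188 and 8881 bp in WT, 6023 and 5866 bp in Npm1c, 8156 and 9396 bp in Flt3-ITD and 7728 and 8328 bp in DM. Neat1 was wide in every library and lowest in both Npm1c libraries, the reverse of most very wide domains.

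Immediate early genes, which are transcribed within minutes of a stimulus, were prominent among the widest. Of 32 genes of a list of immediate early and AP-1 genes, 21 (65.6%) had a wide domain. The share was 8.35% of all protein-coding genes and 35% of a housekeeping list. At Jun, a subunit of the AP-1 transcription factor, the widest peak (domain chr4:95047138-95054245) was 6189 and 6039 bp in WT, 6396 and 7103 bp in Npm1c, 5358 and 5449 bp in Flt3-ITD and 5527 and 5548 bp in DM. In bp the libraries with the Flt3-ITD allele (5358 to 5548 bp) lay below those without it (6039 to 7103 bp). By rank within the lists they overlapped. Jund and Junb, its relatives, also had wide peaks in all 8 libraries. Jund had 3811 to 4302 bp with the allele and 5241 to 6185 bp without it. Junb had 3752 to 5903 bp, and the libraries with and without the allele overlapped.

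Some other genes of the list differed strongly between replicates. Fosb, another AP-1 subunit (chr7:19300389-19310808), had a widest peak of 7468 and 3611 bp in WT, 10177 and 8753 bp in Npm1c, 5639 and 3968 bp in Flt3-ITD and 2101 and 4425 bp in DM. Klf6, a zinc-finger transcription factor (chr13:5860432-5871286), had 10852 bp in Npm1c replicate 2 and 3565 bp in replicate 1, and between 1478 and 3557 bp elsewhere. Its place among the widest domains rests on that library. The widest peak at Ier2 (chr8:84659050-84665957) was 6908 and 6287 bp in WT, 6334 and 6250 bp in Npm1c, 2396 and 2503 bp in Flt3-ITD and 2240 and 3495 bp in DM, with no overlap between libraries with and without the Flt3-ITD allele. At Fos the values were 5127 and 3540 bp, 5677 and 5803 bp, 2165 and 3738 bp, and 2411 and 3580 bp in the same order, and those of the alleles overlapped.

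A group of 86 domains was 2500 bp or wider in both libraries of all 4 genotypes. Besides Jun, Jund, Junb and Neat1, 1 of them lay over Irf2bp2 (chr8:126590938-126597010), a corepressor that binds IRF2. It was 5852 and 5590 bp in WT, 6023 and 5913 bp in Npm1c, 5655 and 5668 bp in Flt3-ITD and 5931 and 5758 bp in DM. Here every library held 1 unbroken peak. Both Npm1c libraries lay above both WT and both Flt3-ITD libraries, and both DM above both Flt3-ITD, while the other pairs of genotypes overlapped.

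Further members of this group were Brd2, a bromodomain protein that reads acetylated histones (4171 to 6185 bp), Bbc3, which encodes the apoptosis inducer PUMA (3001 to 6218 bp), and Tgif1, a homeodomain repressor of TGF-beta signalling (3486 to 7385 bp). Of these, Tgif1 (chr17:70846998-70854400) split by the Flt3-ITD allele, with 6717 and 6618 bp in WT, 7011 and 7385 bp in Npm1c, 3486 and 3553 bp in Flt3-ITD and 3505 and 3531 bp in DM. Gse1, which encodes a subunit of a histone demethylase complex, had 3 wide domains, of which that at chr8:120534659-120540894 was wide in all 8 libraries. It was widest in WT, 6110 and 6236 bp, and narrowest in DM, 2643 and 2577 bp.

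**Figure D3:**
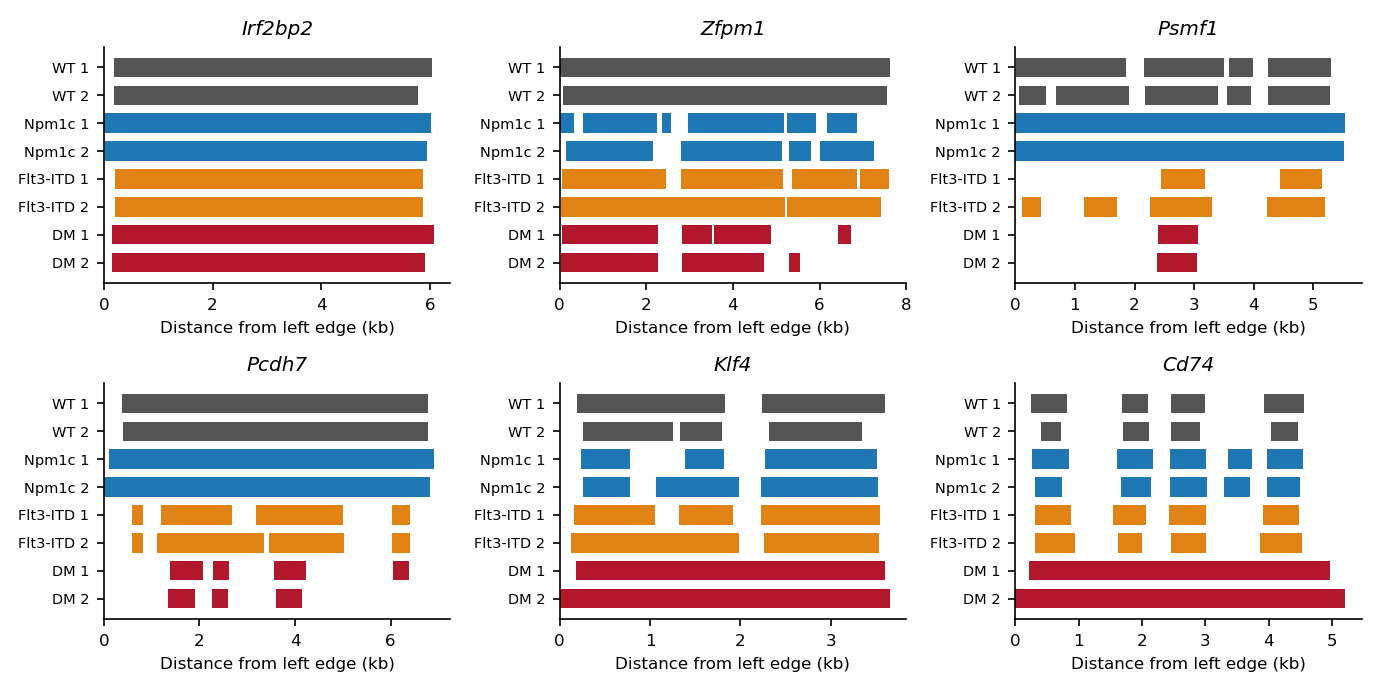
Peaks of each library (bars) across 6 domains, as distance in kb from the left edge of the domain, with libraries from WT (top) to DM (bottom). Irf2bp2 has 1 peak of 5590 to 6023 bp in every library, whereas peaks at Zfpm1, Psmf1, Pcdh7, Klf4 and Cd74 are whole in some genotypes and broken in others.

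The map shows a feature common to many domains: a narrower library often held the same stretch in pieces. Between 31.7% (Npm1c replicate 2) and 51.8% (Flt3-ITD replicate 2) of the 1698 domains were split into 2 or more peaks in a library. The widest single peak can thus fall steeply where only a short gap opens. With the summed width of all peaks in the domain in its place, 1169 domains were narrower in all 4 libraries with the Flt3-ITD allele than in all 4 without it, and with the widest peak 1127 were.

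Those 1127 are 68.1% of the 1656 domains with a peak in all libraries, and the background was 36.1% of the 26169 regions called in all 8. Just 8 domains were wider with the allele, against a background of 1.31%. Since a domain was chosen for a wide peak somewhere and most were widest in WT or Npm1c, such a split is in part built into the rule. By rank within the list, 535 domains were narrower and 107 wider with the allele, and the background was 19.9% and 5.56%. The median ratio of mean widths of Flt3-ITD over WT was 0.711 over these domains and 0.776 over all regions called in all 8, and that of DM over Npm1c was 0.595 and 0.909.

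**Figure D4:**
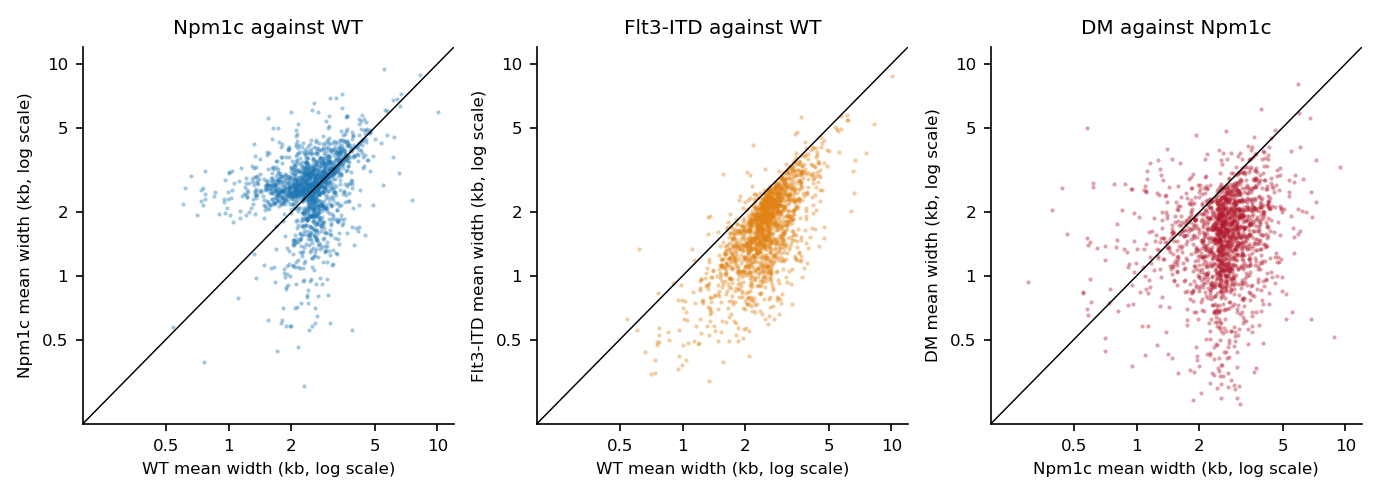
Mean widest peak of the 2 libraries of a genotype in kb (log scales) for the 1656 domains with a peak in all 8 libraries, 1 point per domain, with the line of equal width. Points lie on both sides of the line for Npm1c against WT (median ratio 1.07) and mostly below it for Flt3-ITD against WT (0.711) and DM against Npm1c (0.595).

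Many genes of blood cell identity lay beneath domains. Of 47 haematopoietic transcription factor genes, 26 (55.3%) had a wide domain, against 8.35% of all protein-coding genes and 35% of a housekeeping list. They had 32 domains in all, and 17 of the 31 with a peak in every library were narrower in all 4 libraries with the Flt3-ITD allele. Of all domains so called, 68.1% were. Tal1, a master regulator of stem and erythroid cells (chr4:115055982-115061008), had 4146 and 4456 bp in WT, 4992 and 4889 bp in Npm1c, 1582 and 1727 bp in Flt3-ITD and 1211 and 1189 bp in DM. At Erg, an ETS factor of stem cells (named after its values were seen), the domain was 2920 to 3019 bp wide in the 4 libraries without the allele and 1121 to 1267 bp in the 4 with it. Zeb2, a repressor in myeloid and lymphoid fate choice (chr2:45108150-45114331), had 3037 and 3033 bp in WT, 5126 and 6182 bp in Npm1c, 1595 and 1570 bp in Flt3-ITD and 1474 and 1572 bp in DM. Other listed factors did not split by the Flt3-ITD allele. Irf2 was wide in all 8 libraries, and those with and without the allele overlapped. It had 3271 to 4233 bp without the allele and 2716 to 3294 bp with it.

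Stem cell genes had a wide domain at 6 of 20 listed genes (30%), against 8.35% of all protein-coding genes and 35% of a housekeeping list. Of their 6 domains, 5 were narrower in the 4 libraries with the Flt3-ITD allele, where 68.1% of all domains called in all 8 were. Mllt3, which maintains human stem cells (chr4:88031102-88035893), had 4731 and 4779 bp in WT, 4770 and 4786 bp in Npm1c, 1132 and 1869 bp in Flt3-ITD and 1228 and 1214 bp in DM. The exception was Mecom, a stem cell transcription factor, whose only wide peak was the 2650 bp of WT replicate 1, with 807 to 1356 bp in the other 7 libraries. Kit, the stem cell factor receptor, had 3805 and 2243 bp in WT, 1837 and 2139 bp in Npm1c, 1366 and 1576 bp in Flt3-ITD and 623 and 1342 bp in DM.

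Pcdh7, a protocadherin (chr5:57713506-57720413), was among the 12 widest domains and fell steeply in libraries with the Flt3-ITD allele. Its widest peak was 6415 and 6381 bp in WT, 6809 and 6829 bp in Npm1c, 1822 and 2224 bp in Flt3-ITD and 696 and 559 bp in DM. The single peak of WT and Npm1c was replaced by 4 peaks in each Flt3-ITD library and by 4 and 3 short ones in DM. The 4 libraries with the Flt3-ITD allele were also lower by rank.

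Of a JAK-STAT and RAS-MAPK list of cytokine signalling, the pathway of FLT3, 11 of 35 genes (31.4%) had a wide domain. The share was 8.35% of all protein-coding genes and 35% of a housekeeping list. Spry2, an inhibitor of RAS-MAPK signalling (chr14:105894652-105899323), had 4453 and 3416 bp in WT, 4580 and 4672 bp in Npm1c, 1135 and 1168 bp in Flt3-ITD and 1336 and 1234 bp in DM. The cyclin gene Ccnd2 was wide in all 8 libraries, from 3436 to 4144 bp. Pim1, a STAT5 target kinase (chr17:29488843-29493428), had 4359 and 3647 bp in WT, 1325 and 1477 bp in Npm1c, 2853 and 2892 bp in Flt3-ITD and 3339 and 4586 bp in DM, so that Npm1c was lowest. Socs2, an inhibitor of cytokine receptors named after its values were seen, was widest in DM, at 3086 and 2660 bp, and 1058 to 2029 bp in the other 6 libraries.

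The 8 domains wider in all libraries with the Flt3-ITD allele were so by rank too, and the number was 31 without WT replicate 1 and 14 without Flt3-ITD replicate 1. They lay over Cebpb, Rasgrp2, Rhbdf2, Tspoap1, Csf2ra, a domain with Hes7, Aloxe3 and 4 transfer RNA genes, the gene annotated as AY036118, and near Fgd2. At Rhbdf2, Tspoap1, Hes7, AY036118 and near Fgd2 both DM libraries also lay above all other 6. Flt3-ITD alone was barely wider at AY036118, with 3974 and 4025 bp against 3969 bp in Npm1c replicate 2. Near Fgd2 it had 1342 and 1343 bp against 1315 bp in WT replicate 1. Cebpb, Tspoap1 and Csf2ra fall outside the 5 with the highest ratio and are named after their values were seen. At Cebpb, a transcription factor of myeloid differentiation (chr2:167687499-167690273), the widest peak was 2180 and 2109 bp in WT, 2059 and 1979 bp in Npm1c, 2691 and 2615 bp in Flt3-ITD and 2734 and 2633 bp in DM. The difference was small but every library with the allele lay above every one without. Rasgrp2, an activator of the small GTPase RAP1 (chr19:6398222-6402406), had 2009 and 2057 bp in WT, 1581 and 1380 bp in Npm1c, 4037 and 2134 bp in Flt3-ITD and 3519 and 3620 bp in DM. In the domain with transfer RNA genes (chr11:69121764-69126517) the values were 1592 and 1526 bp, 1813 and 2542 bp, 2974 and 3076 bp, and 3793 and 3697 bp in the same order, each genotype lying above the one before it.

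**Figure D5:**
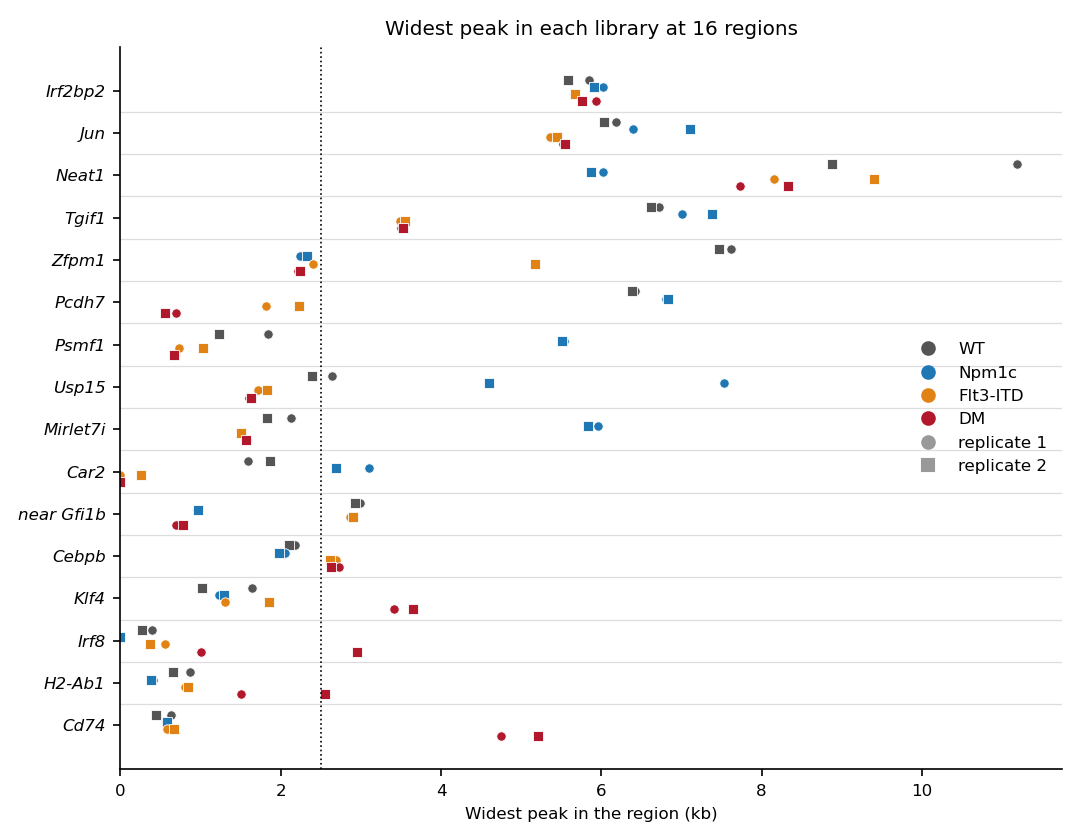
Width in kb of the widest peak in each library (x) at 16 domains (y), coloured by genotype; circles are replicate 1 and squares replicate 2, points at 0 have no peak, and the dotted line is at 2.5 kb. Irf2bp2 has 5590 to 6023 bp in all 8 libraries, Psmf1 has 5540 and 5512 bp in Npm1c and 1842 bp at most elsewhere, and the main Cd74 domain 4750 and 5209 bp in DM and 667 bp at most elsewhere.

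Npm1c had the most wide domains, and 388 were wide in both of its libraries but in both of no other genotype. Its 2 libraries lay above all other 6 in 776 of the 1656 domains called in all 8, or 46.9%, against a background of 16% (by rank 414, background 10.5%), and below all other 6 in 86 (background 10.6%; by rank 295, background 16.9%). At Psmf1, an inhibitor of the proteasome (chr2:151738489-151744028), the difference was large. Its widest peak was 5540 and 5512 bp in Npm1c, against 1842 and 1231 bp in WT, 737 and 1036 bp in Flt3-ITD and 683 and 674 bp in DM. The ratio between the means of Npm1c and WT was 3.60. In WT the same stretch held 4 or 5 separate peaks.

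Other domains widest in Npm1c lay over genes of varied function. Usp15, a deubiquitinase (chr10:123195423-123202955), had 7533 and 4605 bp in Npm1c, 2646 and 2390 bp in WT and 1608 to 1826 bp in the 4 libraries with the Flt3-ITD allele. Gnas, the G protein subunit of hormone receptors (chr2:174326341-174333934), had 7584 and 6142 bp in Npm1c and 3399 and 3159 bp in WT, and 2454 to 2499 bp in the other 4. Oxr1, an oxidation resistance gene (chr15:41829916-41833138), had 3000 and 3223 bp in Npm1c and 487 to 816 bp in the other 6. At the let-7i gene (chr10:122982892-122988848), whose mature sequence is printed above, the peak was 5957 and 5839 bp in Npm1c, 2133 and 1827 bp in WT, 1522 and 1508 bp in Flt3-ITD and 1584 and 1563 bp in DM.

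Heat shock chaperones, which refold damaged proteins, had a wide domain at 7 of 21 listed genes (33.3%). The share was 8.35% of all protein-coding genes and 35% of a housekeeping list. The median over their 9 domains was 3288 and 2656 bp in Npm1c and 1978 and 1822 bp in WT. Hsph1, a nucleotide exchange factor of HSP70, had a domain at its start (chr5:149633291-149637647) with 4131 and 3769 bp in Npm1c, 1673 and 2218 bp in WT and 1342 to 1395 bp in the 4 libraries with the Flt3-ITD allele. Another domain over the gene (chr5:149614659-149619378) had peaks of 4720 and 2313 bp in Npm1c and none in the other 6 libraries, and is the only domain gained in Npm1c against WT. At Dnajb1 and both domains of Dnajb4 the Npm1c libraries also lay above both WT libraries. Not all chaperones did so: at Hspa8, the constitutive HSP70, peaks were 3040 to 3525 bp in all 8 libraries. Hsp90ab1 went the other way, with 2658 and 2635 bp in WT and 2582 and 2501 bp in Npm1c. Hsp90aa1 differed by replicate, with 3048 and 1665 bp in WT and 3345 and 1675 bp in Npm1c.

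Of 55 listed ribosomal protein genes 1 (1.82%) had a domain, Rpl7, and this count leaves out Rpl36, whose domain is given below. Interferon response genes had a domain at 2 of 21 (9.52%, Ifih1 and Gbp2), near the 8.35% of all protein-coding genes. Ifih1, an RNA sensor induced by interferon (chr2:62643288-62647187), had 3900 and 3763 bp in Npm1c, 1507 and 1550 bp in WT, 1025 and 1228 bp in Flt3-ITD and 1026 and 1121 bp in DM. Gbp2, an interferon-induced GTPase, had 2371 and 2669 bp in Npm1c, 1327 and 1352 bp in WT and 262 to 378 bp in the other 4. At both genes the Npm1c libraries were the highest.

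Few domains followed the Npm1c allele in both backgrounds. Only 6 were wider in all 4 libraries with it (background 1.85%) and 73 narrower (background 3.83%), with 70 and 87 by rank (background 3.78% and 3.88%). The sets by bp and by rank differ: 4 of the 6 were wider by rank too, and 35 of the 73 narrower. Without WT replicate 1 the wider ones numbered 28 and without either DM library 11, and without Flt3-ITD replicate 1 the narrower ones numbered 171. Of the 6 wider ones, 3 lie in the Hoxa cluster, whose transcription factors are highly expressed in NPM1-mutant leukaemia. Over Hoxa3 (chr6:52211233-52213927) the widest peak was 986 and 811 bp in WT, 1316 and 2585 bp in Npm1c, 886 and 956 bp in Flt3-ITD and 1295 and 1371 bp in DM. Over Mir196b (chr6:52228464-52231085), which encodes the miR-196b printed above, it was 1499 and 1216 bp, 2565 and 2584 bp, 620 and 608 bp, and 2043 and 2039 bp in the same order. The domain nearest Hoxa9 (chr6:52219746-52222700) split by the allele in bp, with 1030 to 1297 bp without it and 1415 to 2606 bp with it, but overlapped by rank.

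The wide status of Hoxa3 and the Hoxa9 neighbour rests on Npm1c replicate 2 alone. The other members of the 6 lay over Alcam, an adhesion molecule, Stag2, a cohesin subunit, and Alyref2, an RNA export factor which overlapped by rank. Alcam (chr16:52449997-52454612) had 1644 and 1581 bp in WT, 4250 and 4616 bp in Npm1c, 1105 and 1055 bp in Flt3-ITD and 2083 and 2175 bp in DM. Stag2 (chrX:42148144-42151403) had 1889 and 1594 bp, 2635 and 3074 bp, 1634 and 1649 bp, and 2485 and 2542 bp in that order.

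Of the domains called in all 8 libraries, 4.41% were narrower with the Npm1c allele. In the erythroid list 2 of 7 such domains were, both over Zfpm1, and in the megakaryocyte list 0 of 4. The chromatin list had 4 of 18, and the list of haematopoietic transcription factors, which also holds Zfpm1, had 3 of 31. Zfpm1 (chr8:122280546-122288166), which encodes FOG1, the cofactor of GATA1, had 7621 and 7474 bp in WT, 2237 and 2329 bp in Npm1c, 2402 and 5173 bp in Flt3-ITD and 2213 and 2245 bp in DM. A further domain in Zfpm1 (chr8:122320843-122324954) had 4082 and 3817 bp, 2193 and 1975 bp, 2290 and 2579 bp, and 976 and 863 bp in that order. The domain nearest Gfi1b, a repressor of the same branch (chr2:28596968-28599958), had 2991 and 2926 bp in WT and 2866 and 2898 bp in Flt3-ITD, against 959 and 972 bp in Npm1c and 691 and 781 bp in DM. The mean without the allele was 3.43 times the mean with it, and these 3 domains were narrower with the allele by rank too.

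Others of this pattern were Lzts2, a leucine zipper protein (436 to 841 bp with the Npm1c allele, 1641 to 4551 bp without it), and Nol4l (589 to 1098 bp and 2963 to 3166 bp). Cxxc5, a CpG-binding protein, had 209 to 1025 bp with the allele and 1806 to 2673 bp without it, and Unc119 482 to 814 bp and 1163 to 3135 bp.

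WT libraries lay above all other 6 in 275 domains, 16.6% of those called in all 8 (background 23.1%; by rank 245, background 14.8%), and below them in 4 (background 0.164%; by rank 31, background 0.695%). Rpl36, a ribosomal protein gene that shares its domain with Lonp1 (chr17:56613049-56616099), had 2998 and 3018 bp in WT and 582 to 1042 bp elsewhere. Ankrd13a (chr5:114771860-114776645) had 4735 and 4260 bp in WT and 1057 to 1581 bp elsewhere. Replicates were less alike at Rab4a, a GTPase of endosomes, with 2813 and 1342 bp in WT and 427 to 707 bp elsewhere.

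Erythroid genes were beneath 10 domains, at 7 of 24 listed genes (29.2%, against 8.35% of all protein-coding genes and 35% of a housekeeping list). Their median was 2887 and 2633 bp in WT, 2716 and 2423 bp in Npm1c, 1067 and 1979 bp in Flt3-ITD and 694 and 731 bp in DM. Car2, a carbonic anhydrase of red cells, had 3 domains, of which that at chr3:14900722-14903861 had 1590 and 1869 bp in WT, 3099 and 2691 bp in Npm1c, a peak of 253 bp in Flt3-ITD replicate 2 and none in Flt3-ITD replicate 1 or DM. Aqp1, a water channel of red cells, had 2878 and 2207 bp in WT, 2964 and 4205 bp in Npm1c, 1015 and 1070 bp in Flt3-ITD and 565 and 599 bp in DM. Klf1, the erythroid Krüppel-like factor (chr8:84900852-84903785), had 2896 and 2771 bp in WT, 1095 and 1236 bp in Npm1c, 1190 and 2860 bp in Flt3-ITD and 823 and 956 bp in DM. Epor, the erythropoietin receptor, had a like order with 2594 and 2603 bp, 941 and 1551 bp, 1097 and 2464 bp, and 518 and 425 bp (named after its values were seen).

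In these bulk samples fewer cells of a type and less open chromatin per cell cannot be told apart. Among erythroid markers, Epor had a peak in all 8 libraries, and Hbb-bs had 1 or 2 in WT, Npm1c and Flt3-ITD and none in DM. Of the 5 HSPC markers, Kit, Cd34, Gata2, Meis1 and Flt3, all had a peak in all 8 libraries. Neutrophil markers had peaks at 1 to 4 of 5 genes, with Ngp at none in any library and Ltf in WT replicate 1 and both DM libraries. The 3 stroma and endothelium markers had peaks throughout, the B cell marker Cd79a had one in every library, and the T cell markers had none except Cd3e in DM replicate 2. Peak calls do not measure the share of a cell type, and the part of cell composition in the results was not tested.

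DM libraries lay above all other 6 in 20 of the domains called in all 8 (1.21%, background 12.1%) and in 22 of all domains, every one of them also by rank. By rank alone the number was 193 of those called in all 8 (background 24.6%). They lay below all other 6 in 520 domains (background 15%; by rank 247, background 9.36%). The largest ratio was at Cd74, the invariant chain of MHC class II molecules, which present antigen on dendritic cells, macrophages and B cells. Its domain at chr18:60803170-60808378 had a single peak of 4750 and 5209 bp in DM, whereas the other 6 libraries had pieces of at most 448 to 667 bp, a ratio of 9.17 between the means of DM and WT. The neighbouring domain at chr18:60810518-60814824, over the same gene, had 1663 and 4307 bp in DM and no peak elsewhere, and was gained in DM against each other genotype.

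The MHC class II gene H2-Ab1 (chr17:34262894-34265452) had 1511 and 2559 bp in DM, 875 and 658 bp in WT, 404 and 385 bp in Npm1c and 807 and 846 bp in Flt3-ITD. Irf8, a transcription factor of monocytes and dendritic cells (chr8:120750073-120753019), had 1012 and 2947 bp in DM, 396 and 275 bp in WT, 559 and 375 bp in Flt3-ITD and none in Npm1c. Both were wide in DM replicate 2 only. Klf4, a factor of monocyte differentiation (chr4:55529885-55533535), had 3415 and 3651 bp in DM, 1637 and 1020 bp in WT, 1229 and 1293 bp in Npm1c and 1311 and 1850 bp in Flt3-ITD. Here the stretches separate in the other genotypes were joined in DM.

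The microRNA gene Mir142 (chr11:87753923-87757795) had 3024 and 2946 bp in DM, 1960 and 1919 bp in WT, 1230 and 1380 bp in Npm1c and 1339 and 1954 bp in Flt3-ITD. The domain near Fgd2, a myeloid exchange factor of CDC42, had 2827 and 2619 bp in DM and 438 to 1343 bp elsewhere. Of the list of 24 monocyte, macrophage and dendritic genes, 5 (20.8%) had a wide domain: Cd74, H2-Ab1, Irf8, Klf4 and Tcf4. The share was 8.35% of all protein-coding genes and 35% of a housekeeping list. Tcf4, a factor of plasmacytoid dendritic cells, went the other way at both of its domains, with 644 to 1400 bp in DM and 2561 to 3224 bp in Npm1c. Of 18 domains wide in both DM libraries and in both of no other genotype, 6 of the 17 off chromosome 18 (35.3%) lay over a protein-coding start, against 70.9% of all domains.

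None of 26 lymphoid genes had a wide domain and 1 of 21 neutrophil genes (4.76%) did, against 8.35% of all protein-coding genes. The neutrophil gene was Mpo, the myeloperoxidase of granules (chr11:87803229-87807489). It had 2024 and 566 bp in WT, 428 bp and no peak in Npm1c, 3081 and 1284 bp in Flt3-ITD and 3113 and 2070 bp in DM. Chromatin regulators had a domain at 16 of 36 genes (44.4%), against 8.35% of all protein-coding genes and 35% of the housekeeping list. Among them were Kmt2e, a methyltransferase-like protein (3072 to 4214 bp in all 8 libraries), and Kdm6b, a demethylase of histone H3 (3065 to 3890 bp). Another domain over Kdm6b (chr11:69417333-69420748, named after its values were seen) was narrower with the Npm1c allele in bp but not by rank. It had 3416 and 3258 bp in WT, 2597 and 974 bp in Npm1c, 3160 and 3261 bp in Flt3-ITD and 2630 and 3109 bp in DM. Megakaryocyte genes had a domain at 4 of 17 (23.5%), below the 35% of the housekeeping list. At Gp5, a platelet glycoprotein, the peak was 3084 and 2686 bp in WT and 504 to 1702 bp elsewhere. Housekeeping genes had one at 7 of 20, among them Gapdh, with 2307 to 3579 bp, and B2m, with 4136 and 4217 bp in Npm1c, 3030 and 3009 bp in WT, 1457 and 1616 bp in Flt3-ITD and 941 and 999 bp in DM. Shares near that of all protein-coding genes were found for the mast cell list, with 1 of 12 (8.33%; Kit), the HOX list, with 2 of 29 (6.90%; Hoxa3 and Meis1), and the stroma and endothelium list, with 1 of 14 (7.14%). The last was Gja1, a gap junction protein, whose domain had 2338 to 3371 bp in WT and Npm1c, 381 and 460 bp in Flt3-ITD and no peak in DM. These lists were written with earlier results of the data known and describe the domains only.

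In bp, Flt3-ITD libraries were seldom the widest. Trim8, a ubiquitin ligase (chr19:46500763-46505473), was the only domain in which both of its libraries lay above all other 6, with 4020 and 4512 bp against 2058 to 3926 bp (background 0.153%), and by rank it overlapped. By rank 43 domains were above (background 0.925%). In 216 domains both lay below all other 6 (background 17.1%; by rank 317, background 16.9%). The widest 500 regions of each list, which do not depend on a width in bp, shared 386 between the DM libraries, 395 between the Npm1c, 358 between the Flt3-ITD and 351 between the WT libraries. Between genotypes the mean was 312 for Flt3-ITD and DM, 273 for WT and Flt3-ITD, 272 for WT and Npm1c, 225 for WT and DM, 188 for Npm1c and Flt3-ITD and 175 for Npm1c and DM. Libraries of a genotype thus shared more of their widest regions than any pair of genotypes did on average, and 83 regions were among the widest 500 of all 8 lists. Among the widest 500 of both libraries of a genotype and of no other list were 25 regions for WT, 94 for Npm1c, 26 for Flt3-ITD and 56 for DM.

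Several domains lay close together on single genes. Hjurp, a centromere chaperone, and its neighbour Mroh2a carry 3 domains, of which that at chr1:88254090-88266808 had 8478 and 7979 bp in WT, 9443 and 8223 bp in Npm1c, 3569 and 6800 bp in Flt3-ITD and 623 and 408 bp in DM. Sfi1, a centrosomal protein gene, also carries 3 domains. Reads of genes with near-identical copies can align to any of them, and widths at Sfi1 and AY036118 are uncertain for that reason. The AY036118 domain on chromosome 17 had 3892 to 4025 bp in the 6 libraries of WT, Npm1c and Flt3-ITD and 6113 and 6104 bp in DM. In total 53 genes had 2 or more wide domains and 7 had 3 or more, led by Dapp1, an adaptor of B cells, with 4.

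The limit of 2500 bp cuts through a continuous range of widths. Just inside it lay domains at Hjurp, Dexi and Ankrd12 with a widest peak of 2500 bp, and just outside regions at Dhx15 and Ldha with 2499 bp and Tspan13 with 2498 bp. The median widest peak of the domains was 2993 bp, and 230 of 1698 reached 4000 bp.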

How the data were processed

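ATAC-seq libraries of lineage-negative mouse bone marrow cells were compared, 2 per genotype for WT, Npm1c, Flt3-ITD and DM, grouped by the sample titles. The submitters' processing notes name Bowtie2, MACS2 and mm10. Versions, thresholds and duplicate handling are not given in the sources used here. Each library has 1 list deposited by the authors, with chromosome, start and end of every peak in bp and no score, so depth is unknown. Samples of WT neutrophils (2) were left out.

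Peaks sharing at least 1 bp were merged (Python 3.11.15, pandas 2.3.3). Width is end minus start, and the value of a library in a domain is its widest peak. Coordinates are counted from 1. Percentile ranks were taken within a list. Genes came from RefSeq tables of GRCm38.p6: a domain belongs to the genes it overlaps, otherwise to the nearest within 100 kb, and the start table covers 81.8% of protein-coding genes off chromosome 18. The tables give no exons. Calls of 4 against 4 libraries were compared with Fisher's exact test (scipy 1.17.1, two-sided), adjusted over all 103446 regions; 2 against 2 cannot go below an exact p of 0.333. Merging and adjustment were tested on simulated data.

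The domains and the 17 gene lists (431 genes) were chosen with earlier results of these data known. Named domains are the 12 widest, the 8 wide in most libraries, up to 5 per genotype and per allele and direction by ratio, up to 6 per gene list by mean width, those next to the threshold, and Npm1, Flt3 and Mx1, over which no domain lies; other names are said to be chosen after their values were seen or illustrate a list count. Alternatives were other width limits, merging distance, ranks, summed width, equal list lengths and leaving out each library.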

Additional observations from a re-analysis of the deposited data

Results flagged for a closer look

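Among the 4 libraries with the Flt3-ITD allele, Flt3-ITD replicate 2 stood apart with a median domain width of 1818 bp, against 1528 to 1545 bp in the other 3. Among the 4 libraries without that allele, WT and Npm1c, the number of domains with a peak was 1695 in Npm1c replicate 2 and 1696 in the others, a gap of 1 domain. Chance alone marks about 1 in 20 groups of 4 by the limit used (Dixon), a rate that does not hold for counts that are tied but for 1, as here.

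At 3 of the widest domains the Npm1c libraries both lay above both WT libraries while the DM libraries both lay below both Flt3-ITD libraries, and the difference between these contrasts was not tested. The Npm1c mean minus the WT mean was 3814 bp at the Hjurp domain at chr1:88273349-88280272, 421 bp at Pcdh7 and 3551 bp at Usp15.

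Outside chromosomes 1 to 19 and X there were 3 peaks of 2500 bp or wider in WT replicate 1 and 2 in each of the other 7 libraries. The 2 common to all lay on the mitochondrial genome, and the third, of 2556 bp, on an unplaced sequence.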

How the results depend on the processing

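The number of domains was 3620, 840 and 443 with limits of 2000, 3000 and 3500 bp, and 1507 to 1698 with single libraries left out. At 2000 and 3000 bp, regions wide in both libraries numbered 1715 and 257 for WT, 1958 and 425 for Npm1c, 521 and 69 for Flt3-ITD, and 484 and 69 for DM. By rank they were 519 in Npm1c, 337 in Flt3-ITD and 453 in DM. By midpoint, 59.8% of domains were within 1 kb of a gene end and 79.3% in a gene body. With lists of equal length, 0 domains were lost in Npm1c and 1 gained in Flt3-ITD against WT, and DM gained 2 against WT and 1 against Flt3-ITD. In that setting 1 domain was called only with and 2 only without the Flt3-ITD allele.

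By rank 107 domains were wider and 535 narrower with the Flt3-ITD allele and 70 wider with the Npm1c allele, and by summed width 4 and 3 were wider. Leaving out single libraries, with the domains kept fixed, gave 8 to 31 wider and 1127 to 1257 narrower with the Flt3-ITD allele, 6 to 28 wider and 73 to 171 narrower with the Npm1c allele, and 1 to 5 called only without the Flt3-ITD allele. Against WT it gave 1 to 2 lost in Npm1c, 2 to 6 in Flt3-ITD and 25 to 35 in DM, and against Npm1c 2 to 3 gained in DM. The 31 and 28 wider came without WT replicate 1, the 171 narrower without Flt3-ITD replicate 1, the 5 and the 6 without Flt3-ITD replicate 2, and the 2 lost without Npm1c replicate 1. The causes were not tested. The peak lists carry no depth, which limits every width.

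Replicate numbers are shared by the genotypes, but no source says that they pair animals or batches. With a replicate block (exact permutation within replicate numbers, 36 relabellings, smallest p 0.0556), 0 domains passed an adjusted p of 0.05 for either allele, as without it. Since the smallest p of this permutation is above 0.05, no domain could pass, and the block decides nothing.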
